A study of Rattus norvegicus with 24 samples.

Results

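The 3 classical receptors for the ovarian steroids were followed in rat mesenteric arteries, which carry blood to the gut: Esr1, estrogen receptor alpha, Esr2, estrogen receptor beta, and Pgr, the progesterone receptor. Every probe whose only gene symbol was one of these was taken, each probe on its own, which gave 5 of the 10399 probes and 3 of the 6455 genes with a probe of a single symbol. Esr1 had probes 1415 and 22021, Esr2 had probes 1445 and 10840, and Pgr had probe 10829. A test was run on the 10228 probes that were read in 3 or more animals per group, and 4 of the 5 were among them. Esr2 probe 10840 was not and is described by its values.

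The arteries came from 12 female Sprague Dawley rats, 4 per group, all of which had lost their ovaries at 3 weeks of age and had 2 weeks to recover. For 4 days the groups were then injected intraperitoneally with sesame oil (vehicle, animals 3, 4, 5 and 8), with estradiol benzoate, an injectable ester of estradiol, at 0.15 mg per kg per day (animals 2, 3, 5 and 8), or with testosterone, an androgen that aromatase can turn into estradiol, at 1 mg per kg per day (animals 2, 4, 6 and 8), and they were 5.5 weeks old at the end. Each animal's cRNA was hybridised to 2 one-colour CodeLink arrays, so the 24 arrays stand for 12 samples. The groups show young animals without ovaries, and no group had its ovaries, was left uninjected, or received progesterone.

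Estrogen receptors are transcription factors that estradiol activates. Both bind the same palindromic DNA element, the estrogen response element, and also act on genes through other DNA-bound factors such as AP-1 and Sp1. In arteries, Esr1 and Esr2 are found in endothelium and smooth muscle and are known for their effects on nitric oxide, tone and the response to injury. Pgr is a textbook estrogen-induced gene of the uterus and breast, so its transcript is often read as a sign that an estrogen receptor is active there. Levels of all 3 transcripts are known to be set in part by steroids themselves, and the design allows each to be compared between ovariectomised animals with and without a steroid.

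The stretches of 250 bases before the annotated start of each receptor gene are shown because these are the regions in which the receptors' own DNA elements can be looked for. They are RefSeq sequences of the rat build GRCr8, written 5′ to 3′ on the strand of the gene, with matches to the motifs searched in capitals. Esr1 lies on the plus strand at chr1:43641845-43642094, Esr2 on the minus strand at chr6:100644710-100644959 and Pgr on the plus strand at chr8:14354148-14354397.
Esr1: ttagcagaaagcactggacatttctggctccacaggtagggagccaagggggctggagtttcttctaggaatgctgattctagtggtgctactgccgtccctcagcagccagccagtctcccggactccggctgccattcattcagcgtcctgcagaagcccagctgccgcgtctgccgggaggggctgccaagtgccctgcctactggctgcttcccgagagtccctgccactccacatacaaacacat
Esr2: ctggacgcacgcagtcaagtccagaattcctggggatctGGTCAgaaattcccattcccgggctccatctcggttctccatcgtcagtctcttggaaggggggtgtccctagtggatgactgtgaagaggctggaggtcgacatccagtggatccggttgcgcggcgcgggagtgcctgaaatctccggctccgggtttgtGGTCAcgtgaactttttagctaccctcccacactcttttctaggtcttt
Pgr: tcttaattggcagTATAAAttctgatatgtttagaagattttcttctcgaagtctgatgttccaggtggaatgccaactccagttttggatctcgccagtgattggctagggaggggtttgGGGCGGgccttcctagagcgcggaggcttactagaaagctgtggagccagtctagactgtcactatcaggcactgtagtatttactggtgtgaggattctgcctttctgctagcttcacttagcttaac
The motifs, searched on both strands, were the estrogen response element half-site (GGTCA), the full element (an inverted pair of half-sites 3 bases apart), the progesterone response element, the AP-1 site (TGANTCA), the Sp1 site (GGGCGG) and the TATA box (TATAAA). A full estrogen response element holds 2 half-sites, so these motifs overlap. None of the 6 was found in the Esr1 stretch. The Esr2 stretch held 2 half-sites, which begin 211 and 49 bases before the start. The Pgr stretch held 1 Sp1 site, 129 bases before the start, and 1 TATAAA, 237 bases before it. Of 33469 stretches of the same length, 35.4% held the half-site, 30.5% the Sp1 site, 12.9% TATAAA, 6.34% the AP-1 site, 0.373% the progesterone response element and 0.0239% the full estrogen response element. The G and C content was 59.6% for Esr1, 56.4% for Esr2 and 46.8% for Pgr, against a median of 51.2%. These matches are descriptions of the sequence: the arrays measured transcripts, not binding.

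The deposited values are spot intensities scaled so that the median of each array lies between 0.926 and 0.951. An intensity of 1 is therefore close to the middle of the array. All levels below are such intensities, given per animal as the geometric mean of its 2 arrays, and all differences are on the log2 scale. A probe's brightness also depends on its own sequence, so its rank among the probes describes the measurement and is no measure of transcript abundance.

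All 5 receptor probes were dimmer than the median probe. Averaged over the animals, Esr2 probe 1445 was brighter than 45.3% of the 10347 ranked probes, Esr2 probe 10840 than 34.2%, Esr1 probe 1415 than 23.8%, Esr1 probe 22021 than 7.96% and Pgr probe 10829 than 7.39%. The rank of Esr1 probe 1415 moved little between animals, from 22.5% to 26.3%. That of Esr1 probe 22021 ran from 0.282% to 15.3%, nearly the whole dim end of the array. The Pgr probe ran from 2.49% to 9.18%, and Esr2 probe 1445 from 38.1% to 49.3%.

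**Figure D1:**
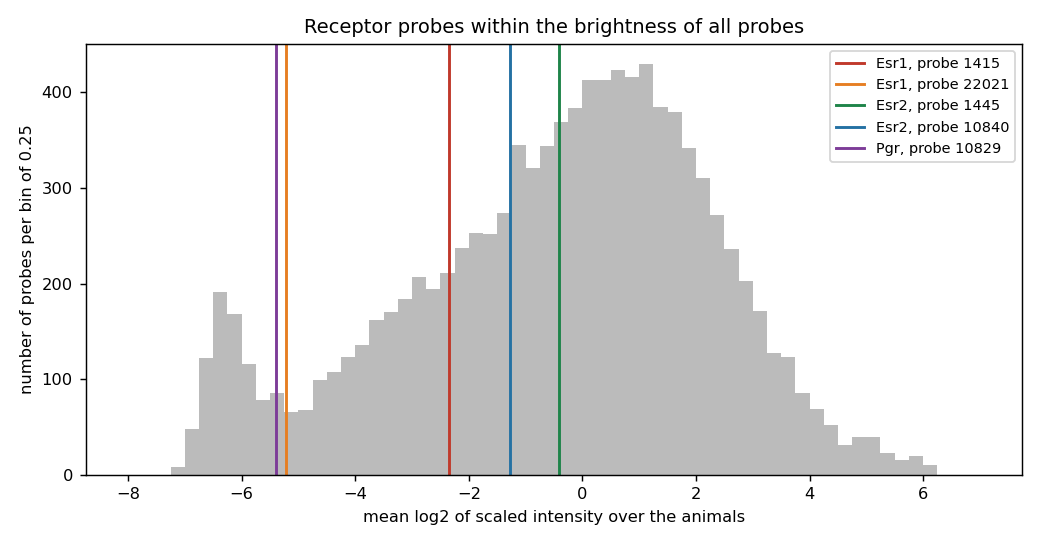
Number of probes by mean log2 intensity over the animals (grey bars, bins of 0.25), with a vertical line for each receptor probe. All 5 lines stand left of the main peak, and Pgr and Esr1 probe 22021 stand between that peak and a smaller peak of very dim probes.

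No receptor probe passed the test in any comparison. At an adjusted p under 0.05 (limma, Benjamini-Hochberg over all 10228 probes), 0 of the 4 receptor probes were called for estradiol benzoate against vehicle, where 0% of all probes were called. The count was 0 of 4 for testosterone against vehicle, beside 0.0489% of all probes, and 0 of 4 for estradiol benzoate against testosterone, beside 0.0293%. At an unadjusted p under 0.05, the counts of receptor probes were 1, 0 and 2 of 4. The shares of all probes were 13.5%, 14.0% and 4.13%. The groups did not overlap at 1, 0 and 1 receptor probes, beside 7.82%, 5.59% and 3.05% of all probes. Both hormone groups were compared with the same 4 vehicle animals, so these comparisons are not independent.

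The Esr1 probe with the steadier signal, probe 1415, gave nearly the same level in all 3 groups. In the vehicle animals 3, 4, 5 and 8 the intensity was 0.181, 0.213, 0.194 and 0.182. In the estradiol benzoate animals 2, 3, 5 and 8 it was 0.222, 0.181, 0.186 and 0.181. In the testosterone animals 2, 4, 6 and 8 it was 0.256, 0.211, 0.187 and 0.183. The groups overlapped throughout, and vehicle animal 4, estradiol benzoate animal 2 and testosterone animals 2 and 4 were the higher ones. The log2 level was −2.38 ± 0.11 (SD, n = 4) with vehicle, −2.38 ± 0.14 (n = 4) with estradiol benzoate and −2.27 ± 0.22 (n = 4) with testosterone. Neighbours in that order differed by less than their spread.

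The intervals at probe 1415 set a bound on what 4 animals could have missed. Estradiol benzoate minus vehicle was −0.0038 on the log2 scale, SE 0.12, with a 95% interval of −0.27 to 0.26 (limma, adjusted p = 0.992). This interval leaves room for a level between 0.832 and 1.20 times that of vehicle. Testosterone minus vehicle was 0.11, with an interval of −0.15 to 0.37 (limma, adjusted p = 0.708). Estradiol benzoate minus testosterone was −0.11, with an interval of −0.37 to 0.15 (limma, adjusted p = 0.999). Without testosterone animal 2 the last 2 differences were 0.0070 and −0.011. A larger shift of this probe's signal in either direction lay outside these intervals, and a smaller one was not detectable with this number of animals.

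The other Esr1 probe, 22021, was among the dimmest of the array and was lower in the estradiol benzoate animals than in the rest. In the vehicle animals 3, 4, 5 and 8 the intensity was 0.0847, 0.0251, 0.0304 and 0.0250. In the estradiol benzoate animals 2, 3, 5 and 8 it was 0.00658, 0.0176, 0.0221 and 0.0218. In the testosterone animals 2, 4, 6 and 8 it was 0.0471, 0.0263, 0.0464 and 0.0262. All 4 estradiol benzoate animals lay below all 8 others, by a narrow margin between 0.0221 and 0.0250, while vehicle and testosterone overlapped. The log2 level was −4.81 ± 0.84 (SD, n = 4) with vehicle, −4.83 ± 0.48 (n = 4) with testosterone and −6.02 ± 0.83 (n = 4) with estradiol benzoate.

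Estradiol benzoate minus vehicle at probe 22021 was −1.21, SE 0.46, with a 95% interval of −2.23 to −0.20 (limma, unadjusted p = 0.0234, adjusted p = 0.311). The exact two-sided permutation test gave p = 0.0286, the smallest that 4 against 4 animals allow. Estradiol benzoate minus testosterone was −1.19, SE 0.46, with an interval of −2.21 to −0.17 (limma, unadjusted p = 0.0258, adjusted p = 0.999), and its exact two-sided permutation p was again 0.0286. Testosterone minus vehicle was −0.03, with an interval of −1.04 to 0.99 (limma, adjusted p = 0.984). None of these passed after adjustment, although 4 of 4 estradiol benzoate animals lay on the same side of both other groups. Of 11 listed fibroblast markers 4 were tested, and Col1a1 was left out of their sum, which needs a value in every animal. The summed intensity of the other 3, Dpt, Lum and Mfap5, was 52.4 to 64.3 in vehicle, 37.2 to 48.6 in estradiol benzoate and 39.1 to 56.4 in testosterone animals. It too was lower in all estradiol benzoate than in all vehicle animals, and its part in the difference at probe 22021 was not tested. In whole arteries, fewer cells of a type and less RNA per cell cannot be told apart.

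A pair of animals carried part of the difference at probe 22021. The arrays of vehicle animal 3 read 0.0210 and 0.3420, a gap of 4.03 on the log2 scale, the widest at any receptor probe. With the dimmer of these arrays alone, an alternative added after the values were seen, estradiol benzoate minus vehicle was −0.71 (limma, adjusted p = 0.404) and testosterone minus vehicle was 0.48. Without vehicle animal 3, estradiol benzoate minus vehicle was −0.80 (limma, adjusted p = 0.542), and without estradiol benzoate animal 2 it was −0.81 (limma, adjusted p = 0.456). Without animal 2, estradiol benzoate minus testosterone was −0.78 (limma, adjusted p = 1.00). With 0.1 added to each intensity before log2, both differences were smaller, −0.34 against vehicle and −0.22 against testosterone. That constant is larger than the level of every animal at this probe, so it shrinks any difference by itself. Both estradiol benzoate differences were negative in all of these, while testosterone minus vehicle turned sign.

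Levels at the 2 Esr1 probes were not correlated over the animals. Estradiol benzoate animal 2 was the highest of its group at probe 1415 and the lowest of all 12 animals at probe 22021. Over the 12 animals, Pearson's r between the probes was −0.11 (permutation p = 0.700) and Spearman's rho 0.17 (permutation p = 0.604), and r was −0.12 without the 2 animals farthest from the median. Between the 2 arrays of an animal, r was only 0.32 at probe 1415 and 0.29 at probe 22021. With so little agreement within each probe, a low r between them cannot show that the probes differ. Which part of the transcript each probe matches was not analysed here.

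Esr2 probe 1445 was nearest to the middle of the array and had a larger SD with either hormone than with vehicle, a difference in spread that was not tested. In the vehicle animals 3, 4, 5 and 8 the intensity was 0.804, 0.835, 0.883 and 0.771, the last from 1 array. In the estradiol benzoate animals 2, 3, 5 and 8 it was 0.909, 0.639, 0.716 and 0.745. In the testosterone animals 2, 6 and 8 it was 0.904, from 1 array, 0.691 and 0.507, and animal 4 was blank on both arrays. The 3 lower estradiol benzoate animals lay below all vehicle animals and animal 2 above them, and the testosterone group was spread in the same way. The log2 level was −0.28 ± 0.08 (SD, n = 4) with vehicle, −0.42 ± 0.21 (n = 4) with estradiol benzoate and −0.55 ± 0.42 (n = 3) with testosterone.

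The order of the Esr2 levels was not separated from the spread. Estradiol benzoate minus vehicle was −0.14, SE 0.17, with a 95% interval of −0.51 to 0.23 (limma, adjusted p = 0.731), and ran from −0.24 without estradiol benzoate animal 2 to −0.066 without animal 3. Testosterone minus vehicle, with 3 testosterone animals, was −0.27, SE 0.18, with an interval of −0.67 to 0.13 (limma, adjusted p = 0.526). Without testosterone animal 8, whose arrays read 0.3666 and 0.7014, it was −0.06 (limma, adjusted p = 0.878), and without animal 2 it was −0.47 (limma, adjusted p = 0.382). Estradiol benzoate minus testosterone was 0.13, with an interval of −0.27 to 0.53 (limma, adjusted p = 0.999). Without testosterone animal 8 it was −0.083, without testosterone animal 2 it was 0.33, and without estradiol benzoate animal 2 or 3 it was 0.035 or 0.20.

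Esr2 probe 10840 gave values in 9 animals. In the vehicle animals 3, 4, 5 and 8 the intensity was 0.419, 0.443, 0.339 and 0.393, that of animal 5 from 1 array. In the estradiol benzoate animals 2, 5 and 8 it was 0.492, 0.344 and 0.439, each from 1 array, and in the testosterone animals 6 and 8 it was 0.385 and 0.503. The ranges of the 3 groups overlapped. The log2 level was −1.33 ± 0.17 (SD, n = 4) with vehicle, −1.25 ± 0.26 (n = 3) with estradiol benzoate and −1.18 ± 0.27 (n = 2) with testosterone. With the rule relaxed to 2 animals per group, the log2 differences in limma were 0.08 and 0.15 for estradiol benzoate and testosterone against vehicle and −0.06 between the hormones (adjusted p = 0.838, 0.745 and 0.999). Here the order of the groups was the reverse of that at Esr2 probe 1445, and neither order exceeded the spread.

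Blank spots were concentrated at Esr2. Probe 10840 was blank on 10 of 24 arrays, more than at 98.7% of all probes, and probe 1445 on 4 of 24, more than at 97.4%. The blanks at probe 10840 fell on 1 of 8 vehicle, 5 of 8 estradiol benzoate and 4 of 8 testosterone arrays. Those at probe 1445 fell on 1, 0 and 3 of 8. Over all probes, 2.77%, 2.46% and 3.10% of the spots were blank in these groups. The reason for a blank spot is not stated in the labels or the files, and neither probe was near the dim end, where values at or below 0 occurred.

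Pgr was dim in every animal, with its highest values in 2 estradiol benzoate animals and its lowest in a testosterone animal. In the vehicle animals 3, 4, 5 and 8 the intensity was 0.0259, 0.0298, 0.0233 and 0.0237. In the estradiol benzoate animals 2, 3, 5 and 8 it was 0.0248, 0.0387, 0.0217 and 0.0344. In the testosterone animals 2, 4, 6 and 8 it was 0.0202, 0.0250, 0.0198 and 0.0103, the last from 1 array. Estradiol benzoate animals 3 and 8 lay above all vehicle animals and animal 5 below them, and testosterone animals 2, 6 and 8 lay below all animals of the other groups. Estradiol benzoate animals 3 and 8 were also those with the highest sums of pancreas markers of all 12 animals, 106 and 5.25. The sums were 0.749 and 1.82 in estradiol benzoate animals 2 and 5. The next highest sum was 2.48, in testosterone animal 6, whose Pgr intensity was 0.0198. The part of these markers in the Pgr values was not tested. The log2 level was −5.10 ± 0.39 (SD, n = 4) with estradiol benzoate, −5.29 ± 0.16 (n = 4) with vehicle and −5.80 ± 0.55 (n = 4) with testosterone.

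The Pgr probe passed no test after adjustment, and its interval against vehicle included 0 for both hormones. Estradiol benzoate minus vehicle was 0.19, SE 0.26, with a 95% interval of −0.38 to 0.76 (limma, adjusted p = 0.764). Without estradiol benzoate animal 3, 8 or 5 it was 0.051, 0.11 or 0.33. Testosterone minus vehicle was −0.51, SE 0.26, with an interval of −1.08 to 0.06 (limma, unadjusted p = 0.0727, adjusted p = 0.397; exact two-sided permutation p = 0.0857), and all 4 testosterone animals lay below the vehicle mean. Estradiol benzoate minus testosterone was 0.70, SE 0.26, with an interval of 0.13 to 1.27 (limma, unadjusted p = 0.0198, adjusted p = 0.999). Its exact two-sided permutation p was 0.0857, and the groups overlapped through estradiol benzoate animal 5 and testosterone animal 4.

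The lowest Pgr value carried part of both testosterone differences. Without testosterone animal 8, testosterone minus vehicle was −0.25 (limma, adjusted p = 0.566) and estradiol benzoate minus testosterone was 0.43 (limma, adjusted p = 1.00). With 0.1 added to each intensity the 2 differences were −0.08 and 0.13. That constant is larger than every Pgr value, so it shrinks any difference by itself. Both differences kept their sign.

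**Figure D2:**
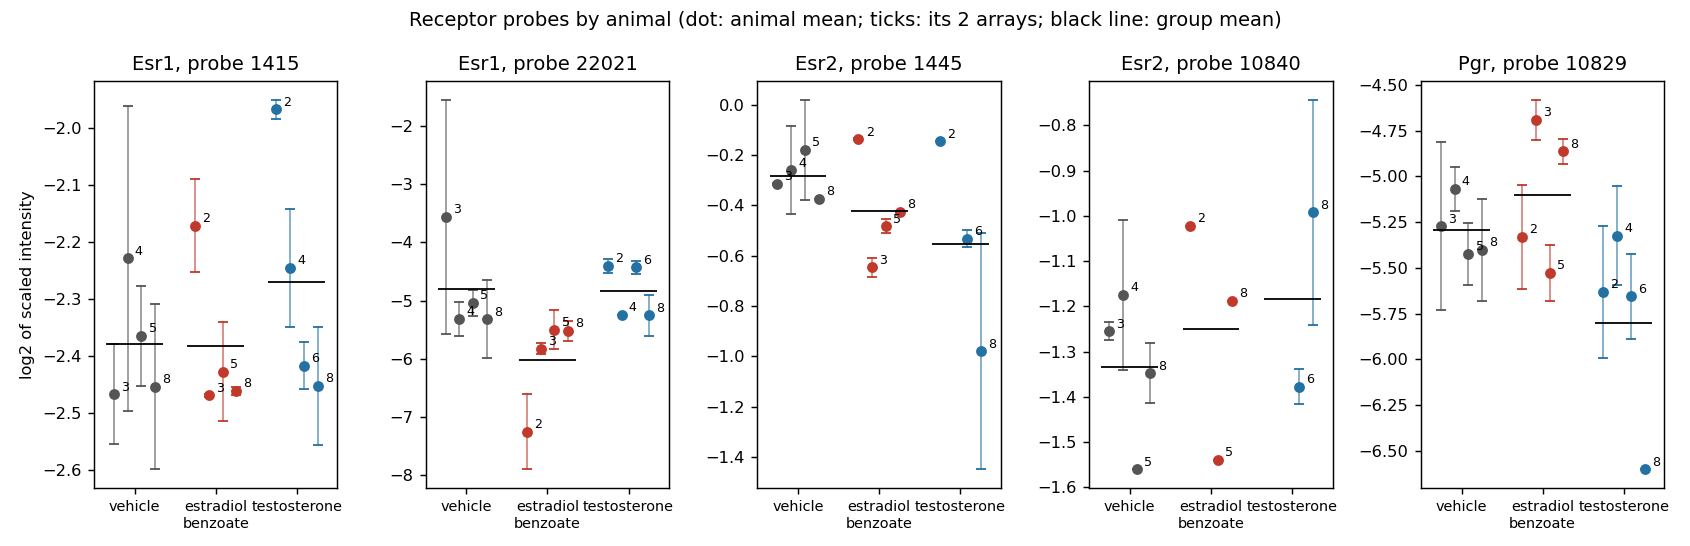
Log2 intensity of each receptor probe by animal and group: dots are animal means, labelled with the animal's number, ticks joined by a line its 2 arrays, and black lines the group means. Each panel has its own axis; only at Esr1 probe 22021 do the estradiol benzoate animals lie below all others, and the long line there is vehicle animal 3 with its gap of 4.03.

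**Figure D3:**
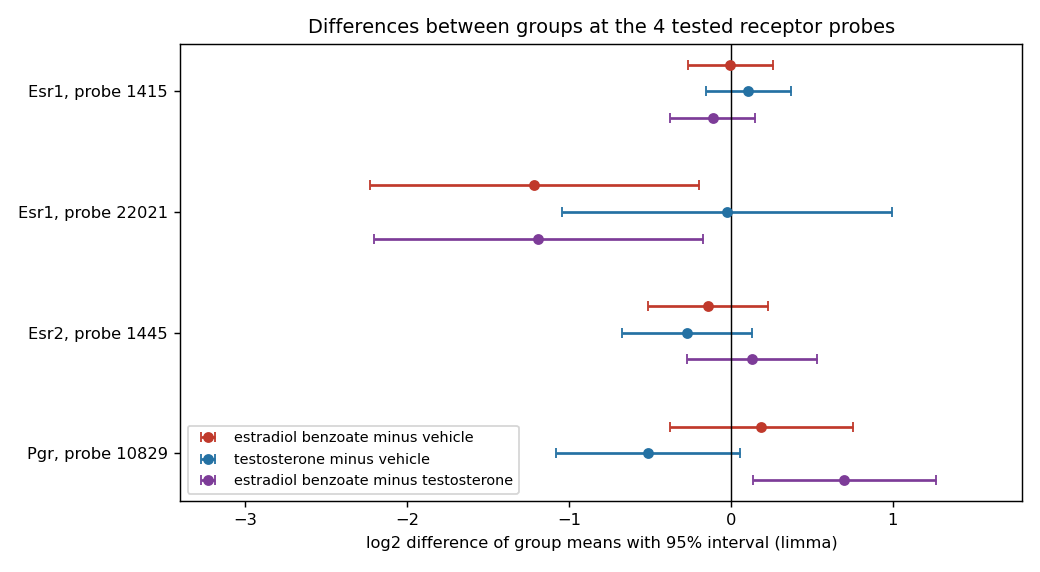
Log2 difference of group means (dots) with 95% intervals (bars) from limma at the 4 tested receptor probes, for the 3 comparisons. The intervals of Esr1 probe 1415 are the narrowest, and 3 of the 12 intervals leave out 0: both estradiol benzoate comparisons at Esr1 probe 22021, and estradiol benzoate minus testosterone at Pgr, none called after adjustment.

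The 2 arrays of an animal share their cRNA, so the SD between them measures the arrays alone. The SD between duplicate arrays was 0.156 on the log2 scale at Esr1 probe 1415, beside an SD of 0.165 between animals of a group. It was 0.986 beside 0.737 at Esr1 probe 22021, 0.255 beside 0.251 at Esr2 probe 1445, 0.196 beside 0.222 at Esr2 probe 10840 and 0.359 beside 0.403 at Pgr. These 2 SDs are not on the same scale, since the first is that of 1 array and the second that of animal means. For a mean of 2 arrays the duplicate SD was 0.110, 0.697, 0.181, 0.138 and 0.254, in the same order of probes. It was below the SD between animals at each receptor probe. Over all tested probes the medians were 0.119 for 1 array and 0.195 between animals.

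Set beside the 500 tested probes nearest in brightness, the receptor probes stood on both sides. Pgr was steadier than most, since 9% of its neighbours had a lower SD between duplicates and their median was 0.664. Esr1 probe 22021 was less steady, with 89.8% of its neighbours lower around a median of 0.594, and 29 of the 500 had a wider largest gap than 4.03. Esr2 probe 1445 was above 96.6% of its neighbours, whose median was 0.101, and Esr1 probe 1415 was near the middle with 66.4% lower. Among the neighbours of Esr1 probe 22021 and of Pgr, 10.6% and 16.4% had at least 1 value at or below 0, against 2.54% of all tested probes; the receptor probes themselves had 0.

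**Figure D4:**
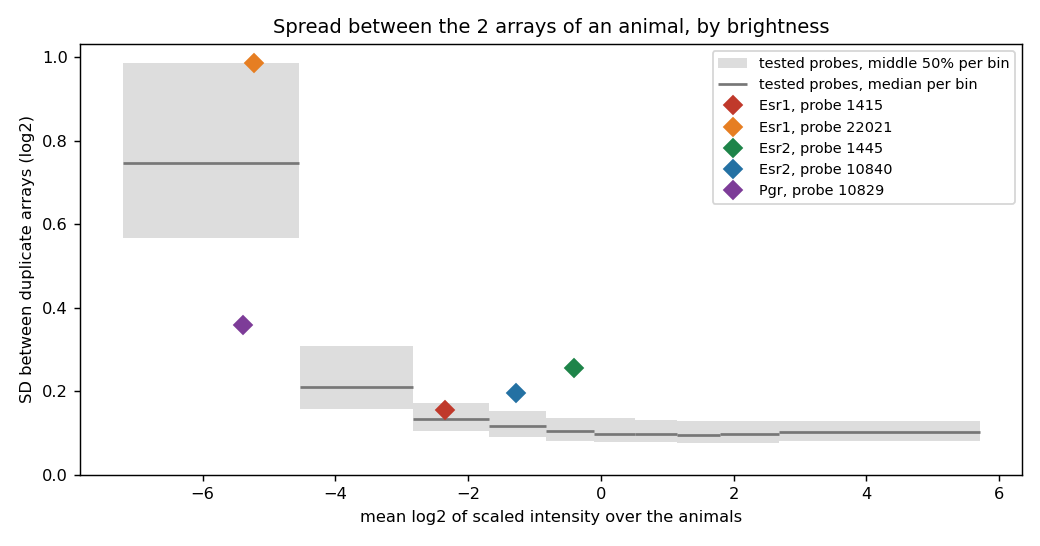
SD between the 2 arrays of an animal (log2, vertical) against mean log2 intensity (horizontal). Grey lines and boxes are the median and the middle 50% of the tested probes in 10 bins of about equal size by brightness, and diamonds are the receptor probes: Pgr lies below its box, Esr1 probe 1415 inside, Esr1 probe 22021 (0.986) at the upper edge of its box (0.987), and both Esr2 probes above theirs.

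The agreement of the first with the second arrays over the animals was below that of most probes. Pearson's r between them was 0.32 at Esr1 probe 1415 (12 animals, rho −0.01), 0.29 at Esr1 probe 22021 (11 animals, rho 0.39), 0.47 at Esr2 probe 1445 (9 animals, rho 0.78) and 0.16 at Pgr (11 animals, rho 0.14). The permutation p of r, adjusted over these 4, was between 0.431 and 0.641, and that of rho between 0.0689 and 0.991. Without the 2 animals farthest from the median, r was −0.35, −0.19, 0.66 and −0.13. The median r over all tested probes was 0.68, and 18.4%, 17.2%, 29.0% and 11.1% of them had a lower r than these probes.

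Among the 10 pairs of receptor probes, the highest correlation over the animals was between Esr1 probe 1415 and Esr2 probe 1445, with r = 0.62 (11 animals, permutation p = 0.0498, adjusted over the 10 pairs p = 0.498) and rho = 0.66 (permutation p = 0.0304, adjusted p = 0.304). The value of r was 0.46 without the 2 animals farthest from the median. The 2 Esr2 probes gave r = −0.28 over 9 animals (exact permutation p = 0.492) and rho = −0.02 (exact permutation p = 0.982), and r was 0.01 without the 2 farthest. As a description, the genes most alike were sought among single-symbol probes of at least median brightness with values in the same animals. These were 3680 probes for the Esr1 and Pgr probes, 3685 for Esr2 probe 1445 and 3700 for Esr2 probe 10840. The genes most alike were Pklr, a pyruvate kinase (r = 0.93), Kctd15 (0.92) and Unc119 (0.92) for Esr1 probe 1415, and Ppp1r3d (0.93), Cxxc5 (0.92) and Fxr2 (0.88) for Esr2 probe 1445. For Esr1 probe 22021 they were Kiaa0040 (0.80), Vipr2, a receptor for vasoactive intestinal peptide (0.78), and Bcar3 (0.78). For Pgr they were Ndufb9, a subunit of respiratory complex I (0.84), Tceal9 (0.82) and Mcee (0.79), and for Esr2 probe 10840, over 9 animals, Cdh16 (0.87) and Gldc (0.84). The choice was by r alone, and the highest of so many correlations over so few animals is high in part through the search itself. For Pklr, Kctd15 and Unc119, rho was 0.83, 0.78 and 0.86. For Ppp1r3d, Cxxc5 and Fxr2 it was 0.80, 0.81 and 0.79. None of these was among the 5 highest by rho. For Kiaa0040, Vipr2 and Bcar3, rho was 0.52, 0.80 and 0.73, and r of deviations from group means was 0.73, 0.56 and 0.63. For Mcee rho was 0.61, while for Cdh16 and Gldc it was 0.87 and 0.83.

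The receptors' partners and targets were read from gene lists, each gene by its brightest probe. In each comparison 0 genes of these lists were called. Of all probes, 0% were called for estradiol benzoate and 0.0489% for testosterone against vehicle, and 0.0293% between the hormones. Of the other steroid receptors, 6 of 12 listed genes were tested, with a median difference of 0.16 for estradiol benzoate and 0.11 for testosterone against vehicle, beside −0.01 over all probes for both. Gper1, a membrane estrogen receptor, differed by −0.38 with estradiol benzoate (limma, adjusted p = 0.311) and by −0.04 with testosterone. Pgrmc1, a membrane-associated protein that takes part in progesterone signalling, differed by 0.20 and 0.27 (limma, adjusted p = 0.304 and 0.210). Paqr8, a membrane progesterone receptor, differed by 0.14 and 0.43 (limma, adjusted p = 0.513 and 0.150). The estrogen-related receptors Esrra, Esrrb and Esrrg were not tested here.

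Coregulators, which the receptors recruit to DNA, lay on both sides of vehicle: of 19 tested, 9 were higher and 10 lower with estradiol benzoate, and 10 and 9 with testosterone. Between the hormones, 7 were higher and 12 lower with estradiol benzoate, with a median of −0.03. The smallest p against vehicle with estradiol benzoate was that of the coactivator Crebbp, at −0.45 (limma, adjusted p = 0.326). Of 9 chaperones, which hold unliganded receptors, Hspa8 had the smallest p, at −0.50 with estradiol benzoate and −0.64 with testosterone (limma, adjusted p = 0.191 and 0.116). Of 17 pioneer and tethering factors, 14 and 15 were higher than with vehicle, with medians of 0.19 and 0.20. Among them the AP-1 subunit Junb differed by 1.33 and 1.11 (limma, adjusted p = 0.0941 and 0.109) and Fos by 1.41 and 1.05 (limma, adjusted p = 0.191 and 0.273).

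Enzymes that make or inactivate estrogens and progestins differed most in single genes. Of 21 tested, 14 were higher with estradiol benzoate and 15 with testosterone, with medians of 0.17 and 0.15. Akr1c14, a 3-alpha-hydroxysteroid dehydrogenase, was 1.57 higher with estradiol benzoate than with vehicle (limma, adjusted p = 0.0941) and 1.20 higher than with testosterone (limma, adjusted p = 0.285). Sult1a1, a sulfotransferase that acts on phenols and estrogens, was 0.72 higher than with vehicle (limma, adjusted p = 0.129). Cyp1a2, which hydroxylates estrogens in liver, differed by −3.45 with estradiol benzoate and −4.10 with testosterone (limma, adjusted p = 0.252 and 0.210), in comparisons in which 7 of 17 liver markers summed to 1.29 to 27.6 in vehicle, 1.48 to 1.91 in estradiol benzoate and 0.948 to 1.21 in testosterone animals; their part in this was not tested. Of 16 genes of membrane-initiated signalling, 5 were higher with estradiol benzoate and 8 with testosterone. The growth factor receptor Igf1r had the smallest p in both, at 0.35 and 0.24 (limma, adjusted p = 0.191 and 0.310).

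Known targets of the receptors also had 0 calls, near the share of all probes. Of 24 estrogen targets tested, 15 were higher with estradiol benzoate than with vehicle (median 0.15) and 11 with testosterone (median −0.03). Egr1, an immediate-early transcription factor, differed by 1.32 and 0.74 (limma, adjusted p = 0.122 and 0.243), and Tgfa, a ligand of the EGF receptor, by 0.85 and 0.63 (limma, adjusted p = 0.125 and 0.210). Between the hormones, the chemokine Cxcl12 was 0.43 higher with estradiol benzoate (limma, adjusted p = 0.328). Of 15 progesterone targets, 10 were higher with estradiol benzoate (median 0.08) and 7 with testosterone (median −0.03). Hsd11b2, which inactivates glucocorticoids, differed by −1.05 and −0.69 (limma, adjusted p = 0.195 and 0.324), and the cell cycle inhibitor Cdkn1c by −0.63 and −0.61 (limma, adjusted p = 0.203 and 0.228).

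Cell types in the samples, of the artery wall and of other tissue, were read from marker lists. The 6 tested smooth muscle markers ran from Casq2, brighter than 42.8% of ranked probes, to Cnn1, brighter than 99.1%, while Acta2, Myh11 and Tagln were not tested here. The 9 tested endothelial markers ran from Kdr, at 23.5%, to Pecam1, at 98.7%. The summed intensity of 6 of 14 smooth muscle markers was 58.6 to 76.8 in vehicle, 51.1 to 68.6 in estradiol benzoate and 52.4 to 68.1 in testosterone animals, so the groups overlapped. The 9 tested fat cell markers, of 15 listed, ran from Ucp1, at 31.5%, to Fabp4, at 98.8%. Their sum was 83.6 to 92.0 in vehicle, 78.7 to 102 in estradiol benzoate and 70.8 to 111 in testosterone animals, so the groups overlapped. The part of fat cells in the receptor signals was not tested. The sum of 8 of 14 lymphoid markers was 0.651 to 0.837 in vehicle, 0.855 to 1.44 in estradiol benzoate and 0.879 to 1.25 in testosterone animals. In this sum all animals given a hormone lay above all vehicle animals. The sum of 9 of 15 pancreas markers was 0.643 to 1.37, 0.749 to 106 and 0.647 to 2.48, with the highest value in estradiol benzoate animal 3.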

How the data were processed

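Intensity was measured on 24 one-colour arrays of 12 rats. The deposited values are linear spot intensity, with array medians just below 1; the sources used here do not name the scanner software, background correction, scaling or spot filters. The 327 values at or below 0 and the 6931 blank cells were treated as missing, log2 was taken without a pseudocount, and both arrays of an animal were averaged. A group-means model was fitted to the 12 animals with limma 3.58.1 in R 4.3.3 (9 residual and 2.51 prior degrees of freedom), with Benjamini-Hochberg adjustment over 10228 probes and calls at an adjusted p under 0.05. The script was tested on simulated data. Exact tests of group differences were run in R. Correlations and their permutation tests used scipy 1.17.1 and numpy 2.4.6 in Python 3.11.15. The number of animals limits the precision.

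Genes were named by rule: all receptor probes, the 5 genes per probe most alike, of which 2 or 3 are given, up to 3 genes per list and comparison with the smallest p, of which some are given, and markers by their sum; the dimmest and brightest stand for a marker list. The members and lists were chosen with earlier results of these data known. Alternatives covered scaling, values at or below 0, a pseudocount of 0.1, averaging of duplicates, dim probes, the animals fitted, the variance prior, a block and leaving out each animal. Probe genes come from the platform annotation. Sequences of the probes were not used here.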

Additional observations from a re-analysis of the deposited data

Results flagged for a closer look

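A pair of receptor values stood apart from the other 3 animals of their group, among 12 groups of 4 examined, of which chance would single out about 1 in 20. At Esr1 probe 1415, estradiol benzoate animal 2 had a log2 level of −2.17, and its gap to the nearest animal was 0.861 of the range of the group, above the limit of 0.829. At Esr1 probe 22021, vehicle animal 3 had a log2 level of −3.56, with a gap of 0.842 of the range; 1 of its arrays read 0.3420 and the other 0.0210.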

How the results depend on the processing

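The 4 tested receptor probes were recomputed under up to 25 alternatives, 294 values in all, and 0 were called in limma. Estradiol benzoate minus vehicle and minus testosterone at Esr1 probe 22021 (−1.55 to −0.34 and −1.55 to −0.22) and estradiol benzoate minus testosterone at Pgr (0.13 to 0.90) kept their sign under all that could be fitted. Both differences against vehicle at Esr2 probe 1445, and testosterone minus vehicle at Pgr, also kept their sign. So did testosterone minus vehicle (0.0070 to 0.17) and estradiol benzoate minus testosterone (−0.19 to −0.011) at Esr1 probe 1415. A kept sign therefore did not set the larger differences apart. The other differences turned sign under some alternatives. Estradiol benzoate minus vehicle was 0.071 at Esr1 probe 1415 and −0.0064 at Pgr on the first arrays alone, and at Esr1 probe 1415 it ran from −0.074 to 0.046 with 1 animal left out. Testosterone minus vehicle at Esr1 probe 22021 was 0.11 after quantile normalization, 0.18 on the first arrays alone, 0.32 with the animal number as a block, 0.48 with the dimmer array of vehicle animal 3, and −0.20 to 0.39 with 1 animal left out. Estradiol benzoate minus testosterone at Esr2 probe 1445 ran from −0.083 to 0.33 with 1 animal left out. The cause was not tested.

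Counts of called probes over the whole array moved as follows. For estradiol benzoate minus vehicle, 0 as reported (1376 at an unadjusted p under 0.05), the count was 1 on the first arrays alone, 5 among probes above median brightness, 3 with a trended, robust prior, 5 without animals whose duplicates differed by over 1, and 0 to 2 with 1 animal left out. For testosterone minus vehicle, 5 as reported, it was 8 after quantile normalization, 3 on the first arrays, 2 above median brightness, 1 with only both groups fitted, 0 with the block, and 0 (without vehicle animal 3 or testosterone animal 2 or 6) to 45 (without vehicle animal 5), with 1 without testosterone animal 4 or 8 or estradiol benzoate animal 3, and 11 without vehicle animal 8. For estradiol benzoate minus testosterone, 3 as reported, it was 0 after quantile normalization, 1 on the first and 0 on the second arrays, 5 above median brightness, 0 with only both groups fitted, 0 with the block, and 0 to 1 with 1 animal left out (1 without vehicle animal 3 or testosterone animal 8).

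Animals with the same number deviated together, with a correlation over 0.1, in 2 of 7 pairs (range −0.12 to 0.30). The 41 pairs of animals with different numbers ran from −0.28 to 0.24. What a shared number stands for is not stated, and so few pairs cannot settle it, so the animals were not treated as paired. With the number as a block, the differences at Esr2 probe 1445 were −0.27 and −0.53 against vehicle and 0.26 between the hormones (limma, adjusted p = 0.471, 0.404 and 0.866). No receptor probe is above median brightness, Esr2 could not be fitted on the second arrays, nor Esr1 probe 22021 without duplicates differing by over 1. That filter, the rule of 2 animals and the dimmer array were chosen after seeing the data. The files give no background, so signal over background could not be set beside the dim values of Esr1 probe 22021 and Pgr.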
